A study of Mus musculus with 82 samples.

Results

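The proteasome genes described here are the 49 protein-coding genes whose symbols run from Psma to Psmg, followed by a number and in Psme2b by a letter, among the 27515 genes of the deposited count table. The rule uses symbols only, while the group itself was chosen with earlier results of these data known. They cover the 14 subunits of the constitutive core, its 5 tissue-specific replacements, 17 subunits of the regulatory particle, 7 assembly chaperones, 5 activators and 1 inhibitor. They were read in 82 hexagons, each with a largest radius of 40 µm, cut by laser from cresyl-violet-stained sections of the suprachiasmatic nucleus (SCN) of untreated C57BL/6 mice aged 8 weeks. The SCN, a small cell group of the hypothalamus, drives the body's daily rhythms. The hexagons lie in 9 sections along the anterior-posterior axis, with 1 to 14 hexagons a section. The grid set where a hexagon was cut, not a marker gene, so a hexagon mixes whatever cells lay under it. The labels name no animal, sex or collection time, so hexagons may share an animal and every p-value here is too small and measures only the spread between hexagons or sections. Coordinates have no unit in the labels, which also do not say which end of an axis is which.

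The 26S proteasome is the protease that degrades proteins tagged with ubiquitin. Its barrel-shaped core has outer alpha rings, which gate the entrance, and inner beta rings, which carry the cutting sites in Psmb5, Psmb6 and Psmb7. A regulatory particle caps the barrel: its base holds a ring of ATPases that unfold the substrate, and its lid removes the ubiquitin chain. In the circadian clock, the PER and CRY proteins are cleared by this route each cycle.

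The libraries held between 11905 and 2843366 counts, with a median of 542267.5, and the members took 0.542% of a hexagon's counts at the median (range 0.336% to 0.702%). This was 40 to 15408 counts a hexagon over all 49 genes. Of the 82 libraries, 5 had a total that stayed below the median even when multiplied by 3 (low-depth libraries below). The smallest, in section 4, held 40 member counts of 11905, a share of 0.336% (95% exact Clopper-Pearson interval 0.240% to 0.457%, counting error only), and 34 of the 49 members were at 0 in it. Its normalisation factor was 2.56, against 0.915 to 1.07 in the other 81 libraries, so its values in CPM (counts scaled to library size after TMM normalisation) are the least certain of all. Of 8 markers of SCN neurons, Gad1 and Gad2, enzymes of GABA synthesis, and Rorb, an orphan nuclear receptor, had a count in all 82 hexagons. Nms and Six6 had one in 81 hexagons, Avp in 80, Lhx1 in 72 and Vip in 62. Astrocyte and most oligodendrocyte markers were also present in nearly every hexagon, though Mag had a count in 50 and Mog in 41. Their median summed levels were 3446 CPM (astrocytes) and 1314 CPM (oligodendrocytes) against 4413 CPM for the SCN neuron markers. The cells behind a value of 1 gene were therefore not the same from hexagon to hexagon, and fewer cells of a type cannot be told apart from less RNA per cell.

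Proteasome genes were among the more abundant genes of this tissue. In RPKM, the authors' unit of counts scaled by gene length and by library total, 42 of the 44 members with enough counts to be tested lay above the median of the genes tested (6.86 RPKM). In 42 of the 49 members a count was found in at least 75 hexagons. The smallest library decided how many were found everywhere: 13 members had a count in all 82 hexagons, and 36 had one in each of the other 81. RPKM depends on the gene length in the authors' table. Levels were therefore set beside the same counts divided by the length of the gene's principal transcript in GENCODE M21, a choice made after the data were seen. The order of the 49 genes on both scales had a Spearman correlation of 0.947, given as a description since both use the same counts.

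The inner beta ring held the highest levels. By the authors' length, Psmb1 stood highest of all members at a median of 194 RPKM (SD 58.6, n = 82 hexagons), followed within the ring by Psmb2 at 141, Psmb5 at 139, Psmb6 at 123, Psmb3 at 82.9 and Psmb4 at 56.0 RPKM. Psmb7, the subunit with the trypsin-like cutting site, was far lower than its ring partners at 12.7 RPKM (SD 5.08, n = 82). Psmb7 was the lowest of the 7 beta subunits in 80 of 82 hexagons, and in 79 of 82 on the principal-transcript scale. Each beta ring holds 1 copy of every subunit, while the transcript level of Psmb6, which carries the caspase-like site, was 9.63 times that of Psmb7 by the authors' length and 7.66 times by principal transcript. The ratio to Psmb7 went from 10.9 to 3.70 for Psmb5, which carries the chymotrypsin-like site, and from 15.2 to 3.04 for Psmb1, so the size of these gaps rests on the length used. Psmb7 itself had 37.6 by principal transcript, and Psmb4, the next lowest of the ring, had 92.3. For Psmb1 the length in the table is 1036 bases and the principal transcript is 1758 bases, and on the second scale Psmb6 led with 288 and Psmb1 had 114. Psmb7 (2:38588036-38644087, GRCm38, minus strand) overlaps an exon of Nek6 on the other strand. The library method does not mark strand, so reads from shared stretches cannot be told apart.

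The alpha ring spanned a narrower range. Psma6 was highest at 111 RPKM and Psma4 lowest at 34.5 RPKM, a 3.23-fold span. Between them lay Psma5 at 81.9, Psma3 at 76.7, Psma1 at 68.2, Psma2 at 56.6 and Psma7 at 51.5 RPKM. The neighbours Psma5, Psma3 and Psma1 differed by less than 1 SD of any of them over hexagons. The order of Psma7 was not fixed: it was second lowest by the authors' length and highest of the ring, at 173, by principal transcript.

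In the regulatory particle, the ATPase ring of the base ranged from Psmc5 at 148 RPKM to Psmc2 at 32.1 RPKM. Psmc5 was the highest of the 6 ATPases in 71 of 82 hexagons. Psmc1 had 92.7, Psmc4 63.5, Psmc3 57.5 and Psmc6 36.6 RPKM. The low end of the ring rests on the length used: by principal transcript Psmc2 had 90.6, and Psmc6 was lowest at 57.3 and in 50 of 82 hexagons, while Psmc5 stayed highest at 157. Of the base subunits without ATPase activity, the scaffold subunits Psmd2 and Psmd1 had 54.5 and 26.7 RPKM, and the ubiquitin receptor Psmd4 had 42.4 RPKM. The lid was led by Psmd14, the deubiquitinating enzyme that cuts the chain from the substrate, at 68.6 RPKM. It ran through Psmd7 at 59.2, Psmd12 at 45.1, Psmd6 at 40.3, Psmd8 at 37.2 and Psmd13 at 31.7 to Psmd11 at 16.2 and Psmd3 at 16.0 RPKM. On the principal-transcript scale Psmd14 reached 126 and the last pair 36.3 and 36.9, so the highest and lowest of the lid were the same genes or near neighbours on both.

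Chaperones and regulators were lower as groups, with medians over members of 12.998 RPKM for base chaperones, 14.9 for core chaperones and 13.5 for activators against 68.2, 123 and 60.5 for the alpha ring, the beta ring and the ATPases. The medians of the lid and of the base subunits without ATPase activity lay between, at 38.7 and 42.4 RPKM. The chaperones that build the base had medians of 22.8 RPKM for Psmd10 (gankyrin), 12.998 for Psmd5 and 4.76 for Psmd9. Of those that build the core, Psmg2 had 39.4, Psmg1 15.0, Psmg4 14.7 and Psmg3 1.36 RPKM. Among the activators, which open the core without ubiquitin, Psme2 and Psme1 of the PA28 cap had 37.2 and 23.9 RPKM. The nuclear PA28 subunit Psme3 had 13.5 and the large single-chain activator Psme4 (PA200) had 8.02 RPKM. Psme2b, a single-exon gene close in sequence to Psme2, had 3.63 RPKM, and the split of reads between these copies is uncertain. The inhibitor Psmf1 (PI31) had 7.87 RPKM.

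**Figure D1:**
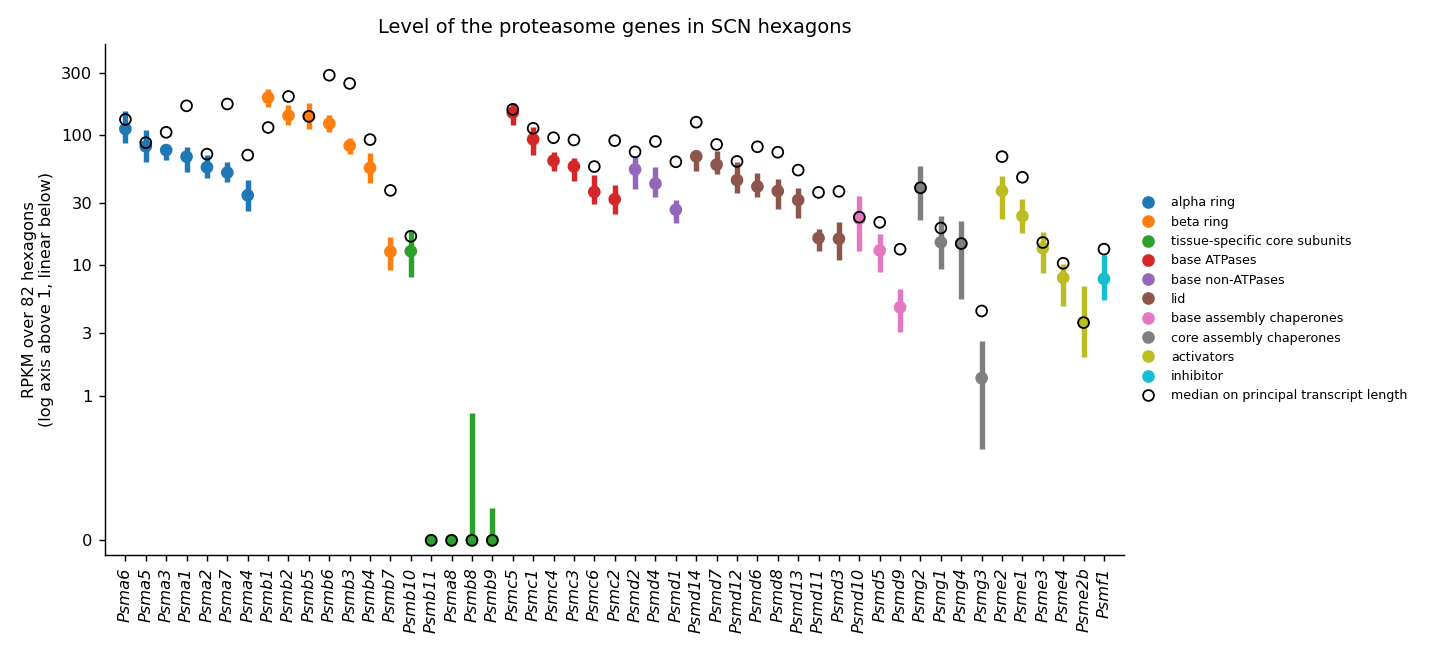
Level of each of the 49 proteasome genes, grouped by role: filled points are medians over 82 hexagons in RPKM by the authors' gene length, bars run from the lower to the upper quartile, and open circles are medians by principal transcript length (axis logarithmic above 1 RPKM). Psmb7 is the lowest beta subunit on both scales (12.7 and 37.6), with Psmb4 next lowest (56.0 and 92.3). Of the 5 tissue-specific core subunits 4 have a median of 0.

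The tissue-specific core subunits replace constitutive ones in certain cells. Psmb8, Psmb9 and Psmb10 take the places of Psmb5, Psmb6 and Psmb7 in the immunoproteasome, Psmb11 belongs to the thymus and Psma8 to the testis. Psmb10 was found in 81 of 82 hexagons, from 0 to 98.7 RPKM with a median of 12.8 RPKM (SD 14.4), close to Psmb7 by the authors' length. By principal transcript Psmb7 was 2.25 times Psmb10, so whether both stood level depends on the length used. Psmb8 had a count in 28 hexagons, 34.1% (95% exact interval 24.0% to 45.4%), and Psmb9 in 23, 28.0% (18.7% to 39.1%). Psma8 had 5 counts in all, in 2 hexagons, and Psmb11 had none in 82, which allows up to 4.40% of hexagons by the exact interval.

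Hexagons with a Psmb8 count were also deeper. The median total was 976788 in the 28 hexagons with Psmb8 and 462310 in the 54 without. The median summed level of 8 microglia markers was 130 CPM (18.1 to 820) in the first and 73.8 CPM (3.89 to 673) in the second, so the ranges overlap over most of their length. The summed endothelial markers had medians of 143 CPM (0 to 861) with Psmb8 and 96.6 CPM (0 to 402) without. For Psmb9 the microglia sums had medians of 151 CPM with a count and 80.0 CPM without, the endothelial sums 113 and 107 CPM, and the total counts 1055030 and 467055. The part of microglia, endothelial cells and depth in these values was not tested. The highest Psmb8 level, 64.1 CPM, rested on 8 counts in a library of 120175. Exons of Psmb8 and Psmb9 overlap those of Gm20496 and Tap1 on the other strand, which limits these counts further.

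The 31 constitutive subunits of the 26S particle were summed in each hexagon. In CPM the sum had a median of 4962 with a lowest value of 919, a highest of 6687 and a coefficient of variation of 16.4% over 82 hexagons. The lowest was the library of 11905 counts. Over the 77 libraries without the low-depth ones the sum ran from 3662 to 6687 CPM, a 1.83-fold range with a coefficient of variation of 13.6%. As a share of raw counts the coefficient was 13.8% in all hexagons and 12.2% in those 77. By gene, the median biological coefficient of variation of the 44 tested members was 0.370 against 0.682 for the genes tested. The fitted trend of this value falls with abundance. Set against the trend at equal abundance, 40 of the 44 members lay below it, as did 57.1% of genes.

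By section, the median of the sum was 4969 CPM in section 1 (4 hexagons, 4072 to 5094), 5099 in section 2 (6, 4806 to 5707) and 4913 in section 3 (12, 4055 to 6044). It was 4477 in section 4 (14, 919 to 4982) and 4424 in section 5 (12, 3662 to 5149). Section 6 had 5324 (14, 4319 to 5992), section 7 had 5141 (13, 4018 to 6687), section 8 had 5592 (6, 4788 to 6211), and the single hexagon of section 9 had 5757 CPM. Sections 4 and 5 were lowest and section 8 highest among those with more than 1 hexagon, and the ranges of neighbouring sections overlap. The libraries fall into 8 sets by the letter that starts each label. Of the 9 sections 5 come from 1 set and 4 from 2, and sets A, D, E, F and H span a pair of sections each, so section and set are only partly separable. In section 7 the 3 hexagons of set F had 4018 to 4511 CPM and the 10 of set G 4882 to 6687 CPM. In section 5 the 10 of set D had 3662 to 4893 CPM and the 2 of set E 5090 and 5149 CPM. The sets did not overlap in either section. In section 6 the ranges of sets E (4319 to 5544) and F (5036 to 5992) did. In section 4 the 2 hexagons of set D (4754 and 4948) lay inside the range of the 12 of set C (919 to 4982). The sets also lay at different medial-lateral positions. In section 7 set F was at 1171 to 1178 and set G at 1178 to 1414. In section 5 set D was at 1100 to 1363 and set E at 1398 and 1442. In section 6 set E was at 1141 to 1276 and set F at 1285 to 1507. Set and position are therefore only partly separable within these sections. Within set F, the 7 hexagons of section 6 all lay above the 3 of section 7. Oligodendrocyte markers also differed between sections, with median sums of 2194 and 2085 CPM in sections 7 and 8 against 669 to 1394 CPM in sections 1 to 6. Across 76 hexagons, as deviations from section means, the constitutive sum correlated with oligodendrocyte markers at r = 0.29, with SCN neuron markers at r = -0.21 and with log2 total count at r = 0.23. These are descriptions over hexagons that share libraries' depth and may share animals, and the part of these quantities in the sum was not tested.

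**Figure D2:**
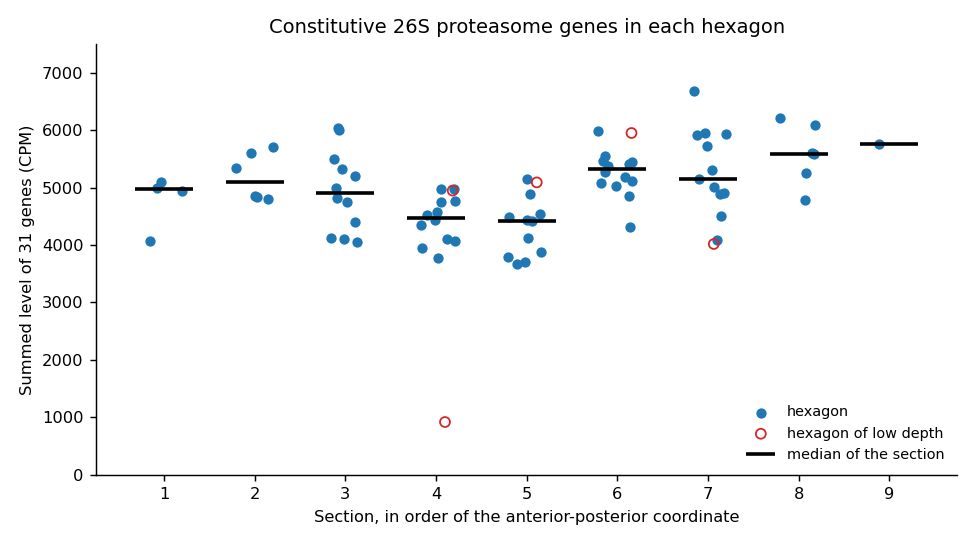
Summed CPM of the 31 constitutive 26S proteasome genes in each of 82 hexagons, by section in anterior-posterior order, with black lines at section medians and open red circles for the 5 low-depth libraries. Medians lie between 4424 and 5757 CPM, and the 1 library near 919 CPM is the smallest of the study.

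Position was tested gene by gene with edgeR's quasi-likelihood test over 11469 genes. Slopes are log2 changes per 100 coordinate units, and a call is an adjusted p (Benjamini-Hochberg) under 0.05 over all genes tested. The question is whether members are graded within or along the nucleus. No member was called on any axis. On the dorsal-ventral axis 0 of 44 members were called against 0.793% of all genes, and 2 had an unadjusted p under 0.05 (4.55%, against 8.46% of all genes). On the medial-lateral axis 0 of 44 were called against 1.38%, and 7 had an unadjusted p under 0.05 (15.9%, against 11.7% of all genes). In the 5-term test of both coordinates with their squares and product, 0 of 44 were called against 2.03%, with 4 at an unadjusted p under 0.05 (9.09%, against 10.7%). Along the anterior-posterior axis, fitted on the sums of 8 sections, 0 of 44 were called against 0.244%, with 8 at an unadjusted p under 0.05 (18.2%, against 16.7%). With backgrounds this low a count of 0 in 44 is near what the share of all genes would give, and it does not set the members apart. Whether the within-section slopes change from anterior to posterior was also asked: 0 of 44 members were called for the dorsal-ventral slope (0.0262% of all genes) and 0 of 44 for the medial-lateral slope (0.0% of all genes). There 2 and 1 members had an unadjusted p under 0.05, with shares of all genes of 7.04% and 5.87%. DESeq2 also called 0 members on the dorsal-ventral axis (1.33% of all genes), on the medial-lateral axis (3.02%), in the 5-term test (3.37%) and for the changes of the dorsal-ventral (0.209%) and medial-lateral slopes (0.148%). It called 2 along the anterior-posterior axis, described below.

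Each slope has an error that treats hexagons or section sums as independent, so it is too small where they share an animal. With an interval of 2 SE either side of the slope, 42 of 44 members lay within 0.25 of 0 on the dorsal-ventral axis, 33 on the medial-lateral axis and 25 on the anterior-posterior axis. A slope of 0.25 is not small over the whole nucleus, since the hexagons span 301 to 917 dorsal-ventral and 1100 to 1517 medial-lateral units. The tightest value belonged to Psma3 on the dorsal-ventral axis (SE 0.028) and the loosest in each case to Psmb8 (SE 0.20 to 0.38), which few hexagons carried.

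**Figure D3:**
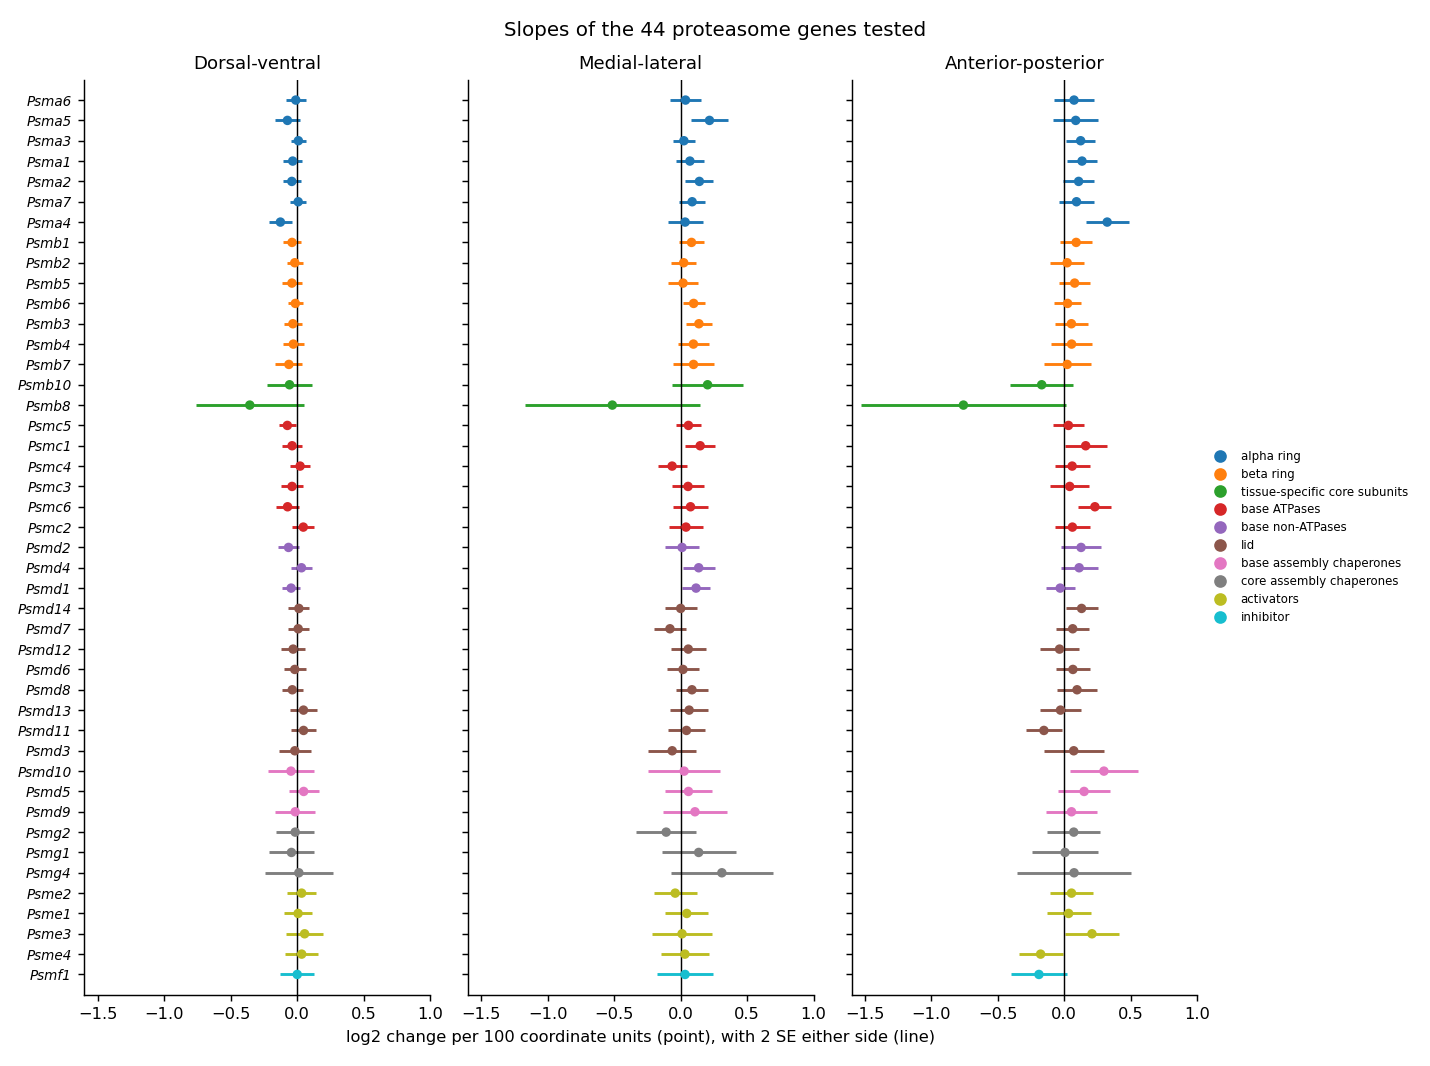
Slopes of the 44 tested members on the 3 axes, as log2 change per 100 coordinate units with lines of 2 SE either side, coloured by role. Lines lie within 0.25 of 0 for 42 (dorsal-ventral), 33 (medial-lateral) and 25 (anterior-posterior) of 44 members. Psmb8 has the lowest slope and the widest line in each panel, and the shared scale is wide enough to hold it.

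Among the dorsal-ventral slopes, Psma4, a subunit of the alpha ring, had the smallest adjusted p. Its level ran from 50.3 to 216 CPM with a median of 98.4 in the 27 hexagons of lowest coordinate, from 25.8 to 138 with a median of 85.4 in the middle 28, and from 8.84 to 128 with a median of 74.3 in the 27 of highest coordinate. The groups overlap widely while their medians step down. Here and for the other members, such groups pool hexagons of all sections, so differences between sections enter their medians. The slopes compare hexagons within sections. The slope was -0.13 (SE 0.043; edgeR adjusted p = 0.226), with a negative sign in 7 of 8 sections. Psmb8 had the lowest slope at -0.36 (SE 0.20, adjusted p = 0.697), with a median of 0 CPM in all 3 groups and a sign that was positive in 4 sections and negative in 3. Without any 1 section the Psmb8 slope lay between -0.44 (without section 4) and -0.017 (without section 6). The highest slopes were those of the activator subunit Psme3 at 0.057 (SE 0.071) and the base chaperone Psmd5 at 0.050 (SE 0.056), with adjusted p of 0.960 and 0.948. Psme3 had medians of 40.2, 36.6 and 46.2 CPM from low to high coordinate, and Psmd5 had 86.1, 90.4 and 114 CPM. Leaving out each section gave 0.0048 (without section 4) to 0.090 (without section 6) for Psme3 and 0.024 (without section 8) to 0.088 (without section 6) for Psmd5. By role, 0 of 7 beta ring subunits had a positive dorsal-ventral slope and 4 of 4 activators did, with medians of -0.032 and 0.034. Over all members 16 of 44 slopes were positive (median -0.018), and over all genes 51.5% were (median 0.0026).

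On the medial-lateral axis the slopes of the members leaned one way without reaching a call. Of 44 members 37 had a positive slope, with a median of 0.056, while 48.7% of all genes did, with a median of -0.0044. Members were shorter than the genes tested, with median lengths of 2692.5 and 4715.5 bases in the authors' table. The slope had a Spearman correlation with length of -0.11 over 11460 genes and -0.045 over the 44 members. The part of length in the members' slopes was not tested. All 7 alpha and all 7 beta ring subunits were positive, with medians of 0.069 and 0.096, as were 5 of 6 ATPases and 5 of 8 lid subunits. With the library set as a further term 31 of 44 were positive and the median fell to 0.022. In the 4 sections with more than 1 set, the sets also differ in medial-lateral position, so set and position are only partly separable. Cell type markers also had medial-lateral slopes: 8 of 8 astrocyte markers were positive (median 0.10, 1 called, S100b), as were 6 of 6 oligodendrocyte markers (median 0.24, none called). Of the SCN neuron markers 1 of 8 was positive (median -0.23, 1 called, Rorb, which was lower at higher coordinate). Their part in the members' slopes was not tested. Psma5 (ENSMUSG00000068749.9, 3:108256926-108279974, plus strand) had the smallest adjusted p. Its level had medians of 105 CPM (0 to 227) in the 27 hexagons of lowest coordinate, 106 (40.4 to 231) in the middle 28 and 131 (9.81 to 220) in the 27 of highest coordinate. The ranges coincide, and the highest group alone has a raised median, in groups that again pool all sections. The slope was 0.22 (SE 0.068; edgeR adjusted p = 0.0897), positive in 6 of 8 sections. Psma5 overlaps an exon of 1700010K24Rik on the other strand.

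Next by p came the core subunits Psmb3 at 0.14 (SE 0.049, adjusted p = 0.154) and Psma2 at 0.14 (SE 0.053, adjusted p = 0.186), positive in 7 and in 8 of 8 sections. The highest slope was that of Psmg4, a chaperone of the core, at 0.31 (SE 0.19, adjusted p = 0.582), with medians of 6.61, 8.69 and 12.3 CPM from low to high coordinate and 5 hexagons at 0 in each group. The lowest were those of Psmb8 at -0.51 (SE 0.33, adjusted p = 0.602) and of Psmg2, partner of Psmg1, at -0.11 (SE 0.11, adjusted p = 0.803). For Psmg2 the medians were 41.3, 44.7 and 34.0 CPM. Without any 1 section the slopes lay between 0.24 and 0.35 for Psmg4, -0.79 (without section 6) and -0.39 (without section 4) for Psmb8, and -0.16 (without section 4) and -0.056 (without section 6) for Psmg2. With the library set as a term the Psmg2 slope turned to 0.0099. Without section 4, Psmc1, an ATPase of the base, passed the threshold on this axis, and it was the 1 member to do so when any single section was left out. Leaving out each section in turn called 31 to 186 of all genes on this axis, against 158 with all sections.

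Along the anterior-posterior axis 36 of 44 members had a positive slope, with a median of 0.064, against 51.2% of all genes, with a median of 0.0050. Without section 8 this fell to 29 of 44 and a median of 0.025. Over 11460 genes the anterior-posterior slope fell with gene length (Spearman correlation -0.25), and over the 44 members the correlation was -0.044. The members were shorter (median 2692.5 bases) than the genes tested (4715.5), and the part of length in their slopes was not tested. All 7 alpha ring, all 7 beta ring and all 6 ATPase subunits were positive, and both tested tissue-specific subunits were negative. The library sets follow this axis and are only partly separable from it. In a fit over hexagons with the set as a factor, added after the data were seen, 22 of 44 members were positive (median -0.012), against 53.3% of all genes (median 0.057). That fit called 0 of 44 members (0.0% of all genes), had 0 members at an unadjusted p under 0.05 (3.56% of all genes) and was far less precise, with a median SE of 0.48 over members against 0.074 on section sums. The 6 oligodendrocyte markers had positive slopes on section sums as well (6 of 6, median 0.31, none called). So did 7 of 8 microglia, 6 of 8 astrocyte, 5 of 8 SCN neuron, 4 of 4 erythrocyte and 2 of 2 meningeal fibroblast markers. Of endothelial markers 2 of 5 were positive, and of mural cell markers 0 of 2. None of these was called, and the part of these cell types in the members' slopes was not tested.

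Psma4 (ENSMUSG00000032301.13, 9:54950790-54958030, plus strand) had the smallest adjusted p. Its section sums, from section 1 to section 8, were 48.2, 79.5, 72.3, 79.4, 90.1, 85.2, 91.2 and 147 CPM. Section 1 was lowest and section 8 highest, and the 6 sections between them differed little. The hexagons of section 8 ran from 104 to 216 CPM and those of section 1 from 25.8 to 96.1 CPM, so these groups did not overlap, but the hexagons of sections 2 to 7 reached 174 CPM. The slope was 0.32 (SE 0.081; edgeR adjusted p = 0.0817). It was called by DESeq2 (slope 0.32, adjusted p = 0.0193) and not in a fit over hexagons (slope 0.21, adjusted p = 0.0878). With the library set as a factor over hexagons the slope was -0.066 with an SE of 0.55. Without any 1 section it lay between 0.22 (without section 8) and 0.38 (without section 2). The single hexagon of section 9, beyond section 8 and outside the fit of section sums, had 49.8 CPM. Psma4 overlaps an exon of AY074887 on the other strand, and reads from shared stretches cannot be told apart.

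Psmc6, an ATPase of the base, is named because an alternative test called it, chosen after its values were seen. Its section sums were 109, 120, 146, 123, 124, 150, 176 and 205 CPM from section 1 to section 8. The last 3 sections were the highest 3. The slope was 0.23 (SE 0.062; edgeR adjusted p = 0.107), called by DESeq2 at adjusted p = 0.0410 and not over hexagons at 0.255. Without any 1 section it lay between 0.18 (without section 8) and 0.25 (without section 3), and over hexagons with the set as a factor it was -0.41 (SE 0.53). Its value in section 9 was 63.3 CPM. DESeq2 called 2 of 44 members, Psma4 and Psmc6, where it called 3.89% of all genes. The fit over hexagons called 1 of 44, where it called 2.94% of all genes. That member was Psmc1, named for the same reason, with section sums of 113, 224, 188, 155, 164, 194, 221 and 233 CPM. The sum of section 1 was the lowest: its 4 hexagons ran from 101 to 128 CPM, and those of section 2 from 151 to 316 CPM. The Psmc1 slope was 0.16 (SE 0.078, edgeR adjusted p = 0.319) on section sums and 0.21 (SE 0.063, adjusted p = 0.0394) over hexagons. On section sums it was 0.067 without section 1 and 0.26 without section 2, and over hexagons with the set as a factor it was 0.76 (SE 0.43, adjusted p = 1.00). Both member shares lie near the share of all genes.

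The second highest slope was that of Psmd10 at 0.30 (SE 0.13, adjusted p = 0.263), with section sums of 21.6, 39.0, 42.1, 28.7, 20.4, 39.2, 44.5 and 70.7 CPM, in which section 8 alone was high. Without section 8 it was 0.14 and without section 2 it was 0.38. The lowest slopes were those of Psmb8 at -0.76 (SE 0.38, adjusted p = 0.337) and Psmf1 at -0.19 (SE 0.11, adjusted p = 0.377). Psmb8 sums were 11.5, 8.95, 4.13, 0.32, 3.91, 2.46 and 4.59 CPM in sections 1 to 7 and 0 in section 8. For Psmf1 they were 78.5, 71.3, 57.1, 47.3, 63.0, 67.4, 64.6 and 31.1 CPM, with section 8 low. Without any 1 section the Psmb8 slope lay between -0.79 and -0.53, and that of Psmf1 between -0.27 (without section 7) and -0.062 (without section 8). With the set as a factor over hexagons the Psmf1 slope was 0.70 (SE 0.70). Psme4 was close to Psmf1 at -0.18 (SE 0.083, adjusted p = 0.293).

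**Figure D4:**
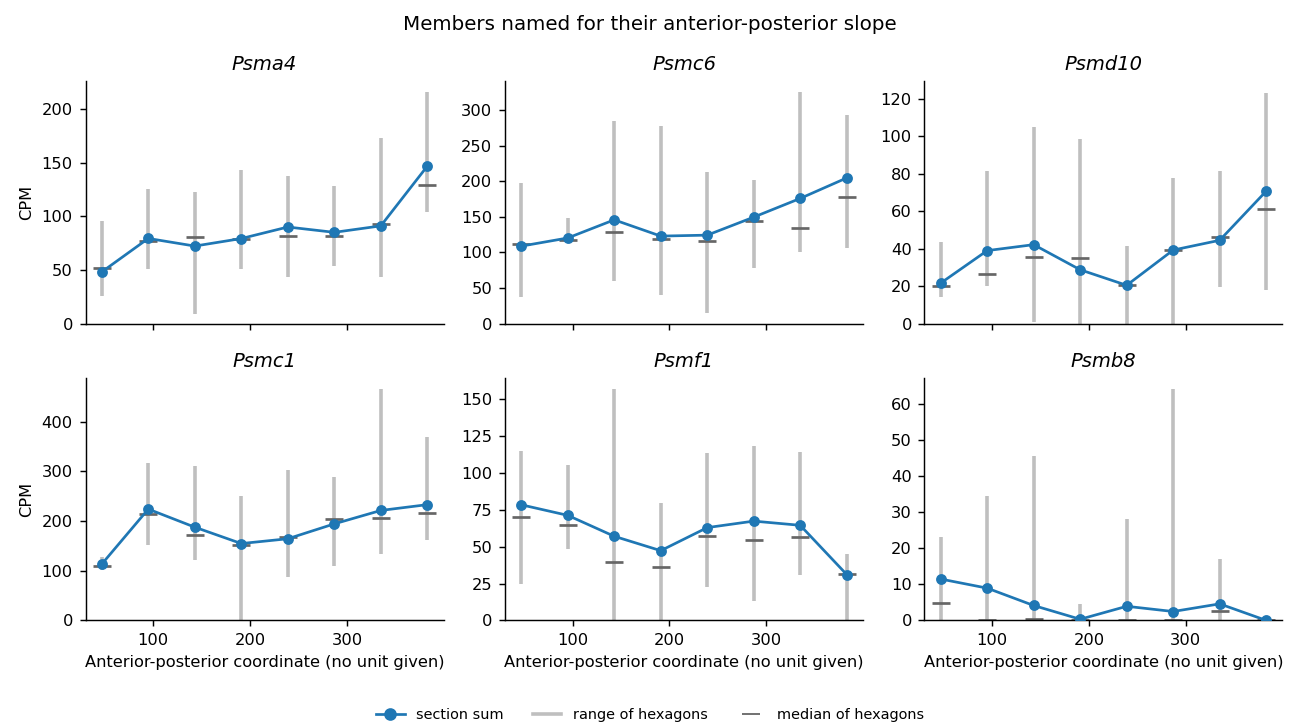
CPM along the anterior-posterior axis for 6 members named for their slope or for a call under an alternative test: blue points are section sums, grey bars the range of hexagons in each of sections 1 to 8 and dashes their medians. For Psma4 and Psmd10 section 8 is highest (147 and 70.7 CPM), and for Psmf1 it is lowest (31.1 CPM).

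The genes that work with the proteasome outside the symbol rule also held no call. None of the 14 partner genes was called by edgeR on any of the 3 axes or in the 5-term test. At an unadjusted p under 0.05 there were 0 on the dorsal-ventral axis, 1 on the medial-lateral axis (Fbxo7), 2 along the anterior-posterior axis (Uchl5 and Zfand5) and 1 in the 5-term test (Nfe2l1), where the shares of all genes were 8.46%, 11.7%, 16.7% and 10.7%. DESeq2 called Fbxo7 on the medial-lateral axis and Zfand5 along the anterior-posterior axis, where it called 3.02% and 3.89% of all genes. The core chaperone Pomp had a median of 154 CPM and slopes of -0.0077 (dorsal-ventral), 0.062 (medial-lateral) and 0.071 (anterior-posterior), with adjusted p of 0.999, 0.743 and 0.600. Of the remaining regulatory particle subunits, the ubiquitin receptor Adrm1 had 61.0 CPM and the small lid subunit Sem1 had 95.2 CPM. Their anterior-posterior slopes were 0.16 (SE 0.093) and 0.013 (SE 0.065). The deubiquitinating enzymes bound to the particle, Usp14 and Uchl5, had 215 and 54.8 CPM, with anterior-posterior slopes of -0.037 (SE 0.053) and 0.25 (SE 0.091, adjusted p = 0.188). Nfe2l1, the factor that raises proteasome genes when the proteasome is inhibited, had 173 CPM and an anterior-posterior slope of 0.037 (SE 0.086). None of 13 tested genes of ubiquitin and its handling was called by edgeR in these 4 tests, nor any of 9 ligases and proteases that act on clock proteins. DESeq2 called Ubqln2, a shuttle that brings tagged proteins to the proteasome, and the ligase Fbxl21 in the 5-term test, where it called 3.37% of all genes, and Siah2 along the anterior-posterior axis.

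Members varied together only weakly from hexagon to hexagon. Over 76 hexagons, as deviations of log2 CPM from section means, the median correlation of the 946 pairs of members was 0.042, against 0.0068 for members with other genes. Among members between the lower and upper quartile of member CPM the median was 0.026, against 0.011 among other genes of the same CPM range. These are given without a test, since hexagons may share animals, and correlations this weak are no finding. The beta ring had the highest median within a role, 0.21 over 21 pairs, followed by the ATPases at 0.10 over 15 pairs and the alpha ring at 0.081 over 21. The lid had a median of -0.0085 over 28 pairs. The closest pair was Psmb2 and Psmb4 at 0.43, followed by Psma5 and Psma3 at 0.41. Psme4 stood at the other end with a median of -0.087 to other members, and it was in 4 of the 5 most negative pairs. It is also among the longest of these transcripts, at 6491 bases. Psmb6 had the highest median correlation with other members, 0.12.

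Promoters were read because Nfe2l1 and the ETS family, whose sites are frequent in promoters of housekeeping genes, are factors known for sites near gene starts. RefSeq windows on GRCm38.p6, 250 bases before to 50 after the annotated start, were at hand for 41 of the 49 members, in 44 windows. The letters CCGGAAGT, the core of ETS sites, were searched on both strands and occurred in 10 of 44 member windows (22.7%). They occurred in 3.89% of all windows and in 8.02% of the windows of genes tested, which are closer to the members in abundance. The letters TGACNNNGC, the core of the antioxidant response element bound by Nfe2l1, were in 13.6% of member windows, 12.4% of all windows and 14.1% of windows of genes tested. CCAAT, the NF-Y core, was in 31.8%, 37.4% and 37.7%. A match of letters is a description and says nothing of binding.

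The ETS matches fell close to an annotated start in several roles at once, which is why they are shown. These were the ATPase ring, the lid, the activators and, by Psma6 alone, the alpha ring. Each stretch reads along the gene's strand with the 8 matched letters in capitals, and offsets count from 0 at the annotated start of its window.
Psmc1, 12:100110162-100110191, plus, offset -29: ttggtggatgcACTTCCGGcggtggcgatt
Psmc2, 5:21786711-21786740, plus, offset -25: ggcgcggagctACTTCCGGtggggaagaga
Psmd12, 11:107479499-107479528, plus, offset -18: atgagcgggcgACTTCCGGtgcgagtgacg
Psmd13, 7:140882377-140882406, plus, offset -6: cgcccgcggtgCCGGAAGTgagcgagcact
Psmd6, 14:14120972-14121001, minus, offset -45: cagagacgcgaCCGGAAGTcagactggcgg
Psme3, 11:101316203-101316232, plus, offset 1: gctgtgacgcaACTTCCGGcgtgagcggcg
Psme4, 11:30771711-30771740, plus, offset -53: gtggccccgccCCGGAAGTgacttgaggcc
Psma6, 12:55398830-55398859, plus, offset 16: cagtagccataACTTCCGGgagggggcttg
Psmg3 had a match at offset 4. The Psma6 match lies in a window (12:55398575-55398874) downstream of the window at the start of the gene (12:55383972-55384271), which held no ETS match. The Psmc2 window shown also lies downstream of the window at the start of the gene (5:21785025-21785324), which held a match at offset -85. Windows were not at hand for Psma8, Psmb1, Psmb2, Psmb7, Psmc3, Psmd3, Psmd7 and Psmg2.

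The antioxidant response letters were about as frequent in member windows (13.6%) as in windows of genes tested (14.1%). They are shown for the core subunits and the ATPase that had them, with 9 letters in capitals.
Psmb5, 14:54618024-54618052, minus, offset -47: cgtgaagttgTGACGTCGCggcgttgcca
Psmb6, 11:70525338-70525366, plus, offset -9: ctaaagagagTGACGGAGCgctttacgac
Psmc6, 14:45329587-45329615, plus, offset -227: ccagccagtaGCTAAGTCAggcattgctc
Psmd12, Psmd9 and Psme4 held the other matches. Psmb5 and Psmb6 carry cutting sites of the core, and with shares this close the matches do not set them apart.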

How the data were processed

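RNA from 82 laser-captured hexagons was made into Smart-seq2 libraries with Tn5 tagmentation, per the labels' protocols. Per the submitters' processing notes, bcl2fastq 2 and STAR were used with GRCm38. For the counting program and its strand setting no source was at hand. The authors deposited raw counts per gene and RPKM. RPKM equalled counts divided by gene length and library total within a relative deviation of 5.2e-15. Lengths and symbols came from the authors' RPKM table, the latter joined by gene ID.

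From the counts, genes with at least 10 counts in at least 10 libraries were kept (11469 genes, 44 members; Psme2b, Psmg3, Psmb11, Psma8 and Psmb9 were not tested). CPM uses TMM-normalised library sizes. edgeR 4.0.16 (R 4.3.3) fitted section plus both coordinates over hexagons, and the anterior-posterior coordinate over 8 section sums, section 9 with 1 hexagon left out. The SE is the slope over the root of F. DESeq2 1.42.0 was an alternative. The hexagons of a section were given replicate numbers in accession order, but they lie at different positions and are not separate replicates of an anterior-posterior level. The script was tested on simulated data. Alternatives were library size alone, other count filters, leaving out the 5 low-depth libraries or each section, the library set as a term, and, added later, principal transcript lengths and a fit over hexagons with the set as a factor.

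The members and lists were chosen with earlier results of these data known. Named in full were, on each axis, the 2 members of largest slope in each direction and any member called; in each role the members of highest and lowest RPKM; and of the partner genes Pomp, Adrm1, Sem1, Usp14, Uchl5 and Nfe2l1. Psmc6, Psmc1, Psmb3, Psma2, Psme4, and the genes of the lists other than those 6, were named after their values were seen. The result of 1 gene of the lists is not reported here.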

Additional observations from a re-analysis of the deposited data

Results flagged for a closer look

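In the sections of 4 to 10 hexagons, Dixon's test at 95% was applied to the constitutive sum and to the 11 named members, 35 groups in all; chance gives about 1 in 20, and 2 stood out. In section 1 the constitutive sum of replicate 1 was 4072 CPM, with 4939 CPM next and 5094 CPM highest among the 4 hexagons. That library held 948827 counts. In section 2 Psmc6 had 149 CPM in replicate 2, with 123 CPM next and 114 CPM lowest among the 6 hexagons, in a library of 847668 counts.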

How the results depend on the processing

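No paired analysis was possible because replicate numbers were given in accession order and pair no hexagons between sections. Of 197 alternative values for 14 named slopes, 190 kept their sign and stayed uncalled. The Psmg2 medial-lateral slope turned from -0.11 to 0.0099 with the library set as a term. Over hexagons with the set as a factor, added after the data were seen, the anterior-posterior slopes of Psma4, Psmc6 and Psmf1 turned to -0.066, -0.41 and 0.70, each within 1 SE of 0, 22 members were positive and 0 genes were called. The count of members called moved from 0 to 2 along the anterior-posterior axis with DESeq2 (Psma4 and Psmc6) and to 1 over hexagons (Psmc1). With no filter on low counts it moved to 1 on the medial-lateral axis (Psma8), where 912 of all genes were called. In the 5-term test it moved to 2 (Psma8 and Psmb8), where 3538 of all genes were called. These members have few counts. Leaving out each section gave 0 to 1 members called on the medial-lateral axis (Psmc1 without section 4) and 0 on the others. The number of positive slopes then ran from 29 to 36 (anterior-posterior), 33 to 38 (medial-lateral) and 15 to 18 (dorsal-ventral). Counts of all genes called moved more: along the anterior-posterior axis 28 became 446 with DESeq2, 106 with no filter, 82 with counts in 50% of libraries and 1 to 85 without a section. On the medial-lateral axis 158 became 346, 912 (no filter), 14 (library set) and 31 to 186; on the dorsal-ventral axis 91 became 152, 799 (no filter) and 44 to 137; and in the 5-term test 233 became 387, 3538 (no filter), 140 (library set) and 81 to 265. The causes were not tested. Of the rarest members, Psmb9, Psma8 and Psmb11 had too few counts for the main tests, and Psmb8 had the largest SE on each axis. None of them can be graded here. Another scaling moved the median slope of all genes by less than 0.1, a bound wider than the members' own median slopes. With DESeq2 the medial-lateral median went from -0.0044 to -0.0205 for all genes and from 0.056 to 0.042 for members, with 34 positive. With library size alone the anterior-posterior median went from 0.0050 to -0.010 for all genes and from 0.064 to 0.048 for members, with 35 positive.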
